A study of Mus musculus with 24 samples.

Results

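The collagen and laminin genes encode the fibrous and sheet-forming proteins of the extracellular matrix. Members were the genes of the count table whose symbol is that of a collagen alpha chain or a laminin chain and whose mean level over the 24 libraries was at least 0.3 CPM (the gene's count as parts of 1e+06 counts of its library). This gave 49 of the 51912 genes in the table, 38 collagens and 11 laminins. A further 6 genes matched by symbol and fell below the limit. The member closest to it was Col17a1, with a mean of 0.369 CPM, and the closest gene outside was Col7a1, with 0.272 CPM.

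RNA was sequenced from the hippocampus of 12 C57BL/6J mice, and a dorsal and a ventral library were made from each animal. The fathers (sires) of the mice had received nicotine or saline chronically, and no treatment of the offspring themselves is given. Each hippocampal region had 3 libraries from nicotine-sired males, 3 from saline-sired males, 3 from nicotine-sired females and 3 from saline-sired females, named A, B and C within a group. The titles carry the number 492 for nicotine-sired males, 493 for nicotine-sired females, 497 for saline-sired males and 499 for saline-sired females. The meaning of these numbers is not given in the sources used here, and they cannot be told apart from sire treatment and sex. If a number marks a litter or a sire, the 3 animals of a group are not independent replicates of the sire treatment, and the p-values measure only the spread between animals within a group.

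Collagens are trimers of alpha chains wound into a triple helix. Fibrillar collagens form the fibrils of connective tissue, type IV collagen forms the network of basement membranes, and type VI forms beaded filaments around cells. Laminins are cross-shaped trimers of an alpha, a beta and a gamma chain that assemble into sheets and, together with type IV collagen, make up basement membranes. In the brain, basement membranes surround the blood vessels and line the surface under the meninges, the membranes that cover the brain. Type I collagen and other fibrillar chains are made mainly by fibroblasts of the meninges and of the larger vessels, while some collagens, such as the transmembrane type XXV, are made by neurons. In bulk tissue, fewer cells of a type and less RNA per cell cannot be told apart.

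The libraries held 32049770 to 47486547 counts, with a median of 39578834, and 23632 to 25543 genes had a count in each. The excitatory neuron marker Slc17a7 was high in ventral (1297 to 1553 CPM) and in dorsal libraries (1065 to 1695 CPM). Some markers of neighbouring tissue varied far more. Ttr, which the choroid plexus epithelium makes in large amounts, exceeded 1000 CPM in 8 libraries (1029 to 5204 CPM) and reached at most 143.5 CPM in the other 16. The 8 were nicotine-sired females B and C in the ventral hippocampus. In the dorsal hippocampus they were nicotine-sired males A and B, saline-sired male A, nicotine-sired females B and C and saline-sired female C. Dcn, a marker of meningeal and perivascular fibroblasts that some neurons also express, had 48.95 to 97.7 CPM in ventral libraries. In the dorsal region it had 41.7 CPM in saline-sired male C and 37.0 CPM in saline-sired female C, against a dorsal median of 8.85 CPM. Other markers of these fibroblasts were much closer between the regions. The ventral and dorsal medians were 3.19 and 3.16 CPM for Slc6a13, 3.61 and 3.40 CPM for Aldh1a2 and 2.79 and 2.24 CPM for Lum.

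The level of each gene was compared with that of others only per length, as RPKM (CPM per kilobase of exon). The 7 highest members held 58.7% of the summed RPKM of all 49, and 37 members averaged under 1 RPKM. Highest was Lamb2 (4.09 ± 0.54 RPKM; mean ± SD over 24 libraries here), the laminin beta chain of vessel and synaptic basement membranes. It was followed by the type IV chain Col4a2 (3.64 RPKM), the neuronal transmembrane collagen Col25a1 (3.54 RPKM), the most widely used laminin gamma chain Lamc1 (3.40 RPKM) and Col4a1 (3.26 RPKM). Col9a3 (3.21 RPKM) and Lamb1 (2.87 RPKM) completed the 7. The lowest member was Col6a5, with 0.04 RPKM.

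**Figure D1:**
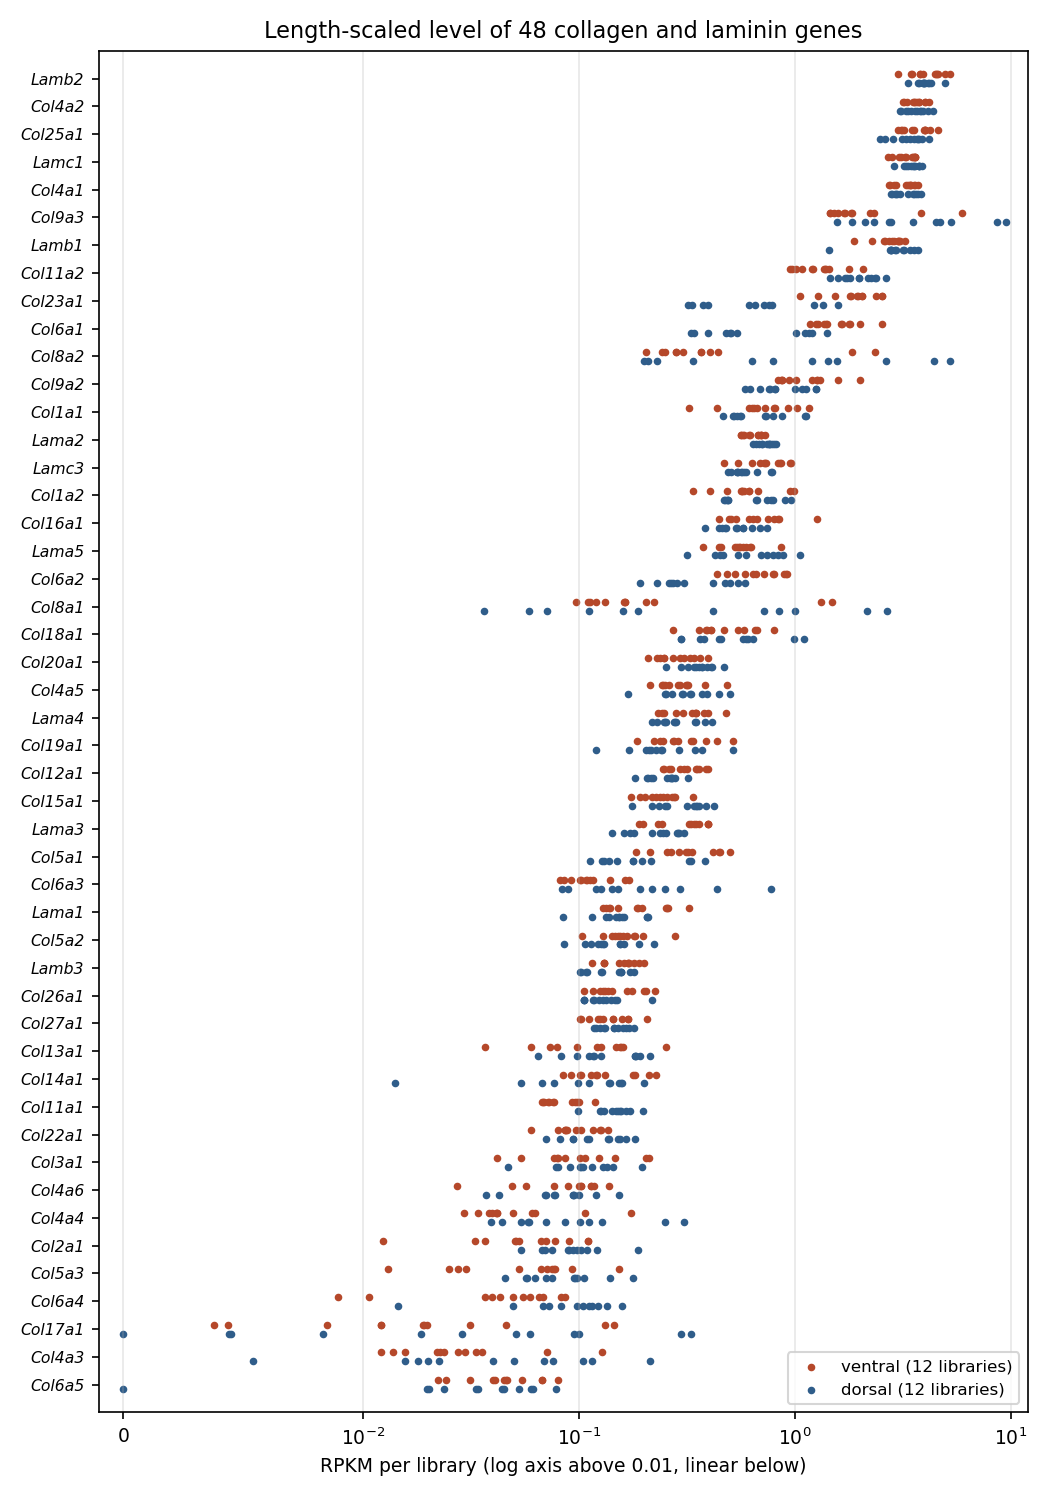
RPKM of 48 members in each library (log axis above 0.01), ordered by mean, with ventral libraries above dorsal libraries in each row. Lamb2, Col4a2 and Col25a1 stand at the top with a narrow spread, while Col8a1, Col8a2, Col4a3 and Col17a1 spread over more than an order of magnitude.

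The 5 highest members were also among the steadiest. Col4a1 had 20.4, 25.2 and 27.7 CPM as the lowest, median and highest of 12 ventral libraries, against 20.8, 23.9 and 28.6 CPM in dorsal libraries. Its partner chain Col4a2 had 21.0, 24.1 and 27.8 CPM in ventral libraries, against 20.2, 24.1 and 28.8 CPM in dorsal libraries. The regions overlapped almost wholly for both chains. Lamc1 had 22.3, 27.9 and 29.96 CPM in ventral libraries, against 23.8, 29.4 and 32.01 CPM in dorsal libraries. Lamb2 had 18.3, 25.5 and 31.9 CPM in ventral libraries, against 20.4, 24.1 and 30.2 CPM in dorsal libraries. Col25a1, the precursor of a collagenous component of amyloid plaques, had 39.1, 48.8 and 59.6 CPM in ventral libraries, against 32.03, 45.3 and 54.1 CPM in dorsal libraries. Over all 24 libraries the highest level was 1.40 times the lowest for Col4a1, 1.42 times for Col4a2 and 1.43 times for Lamc1. The same ratio was 73.1 for Col8a1 and 39.2 for Col4a3, the most variable of the members with a count in every library.

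Col4a1 and Col4a2 lie head to head on chromosome 8 and form 1 trimer. Per length, Col4a1 ran at 0.778 to 0.985 of Col4a2 in the 24 libraries. Their log2 CPM values followed each other over the 12 animals within the ventral region (Pearson r = 0.729, adjusted p = 0.032; Spearman rho = 0.636, adjusted p = 0.103) and within the dorsal region (r = 0.887, adjusted p = 0.002; rho = 0.888, adjusted p = 0.005). These are permutation tests adjusted over 20 relations (10 gene pairs in 2 regions). Values were permuted over all 12 animals without regard to sire treatment and sex. Differences between these groups therefore enter every r, rho and p of this kind. Without the 2 animals farthest from the median of Col4a1, r was 0.728 in the ventral and 0.859 in the dorsal region. The first exons of both genes overlap by 22 bp, so reads from there could be split between them.

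The other pairs varied, and those of types VI and XI are given further on. The type I chains Col1a1 and Col1a2, on separate chromosomes, had r = 0.936 (permutation test, adjusted p = 0.0002; rho = 0.811, adjusted p = 0.0246; r = 0.865 without the 2 farthest animals) in the ventral region. In the dorsal region they had r = 0.506 (adjusted p = 0.174; rho = 0.448, adjusted p = 0.324; r = 0.357 without the 2 farthest animals). Lamb2 and Lamc1, which share trimers, gave r = 0.44 in ventral libraries (adjusted p = 0.237; rho = 0.357, adjusted p = 0.365; r = 0.539 without the 2 farthest) and r = -0.05 in dorsal libraries (adjusted p = 0.957; rho = -0.217, adjusted p = 0.623; r = -0.05 without the 2 farthest).

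The main difference among the members was between the regions. edgeR's quasi-likelihood test over all 19849 genes called 18 of the 49 members at an adjusted p under 0.05, 8 higher and 10 lower in the ventral than in the dorsal hippocampus. The background share called in this comparison was 29.2%, against 36.7% of the members, so the count says little of the members as a set. Their median log2 fold change was -0.04, and that of all genes was -0.01. Higher in the ventral hippocampus were Col23a1, Col6a1, Col6a2, Col5a1, Lama3, Col12a1, Col16a1 and Lamc3. Lower were Col8a2, Col9a3, Col6a3, Col6a4, Col11a1, Col2a1, Col11a2, Col20a1, Col15a1 and Lama2.

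**Figure D2:**
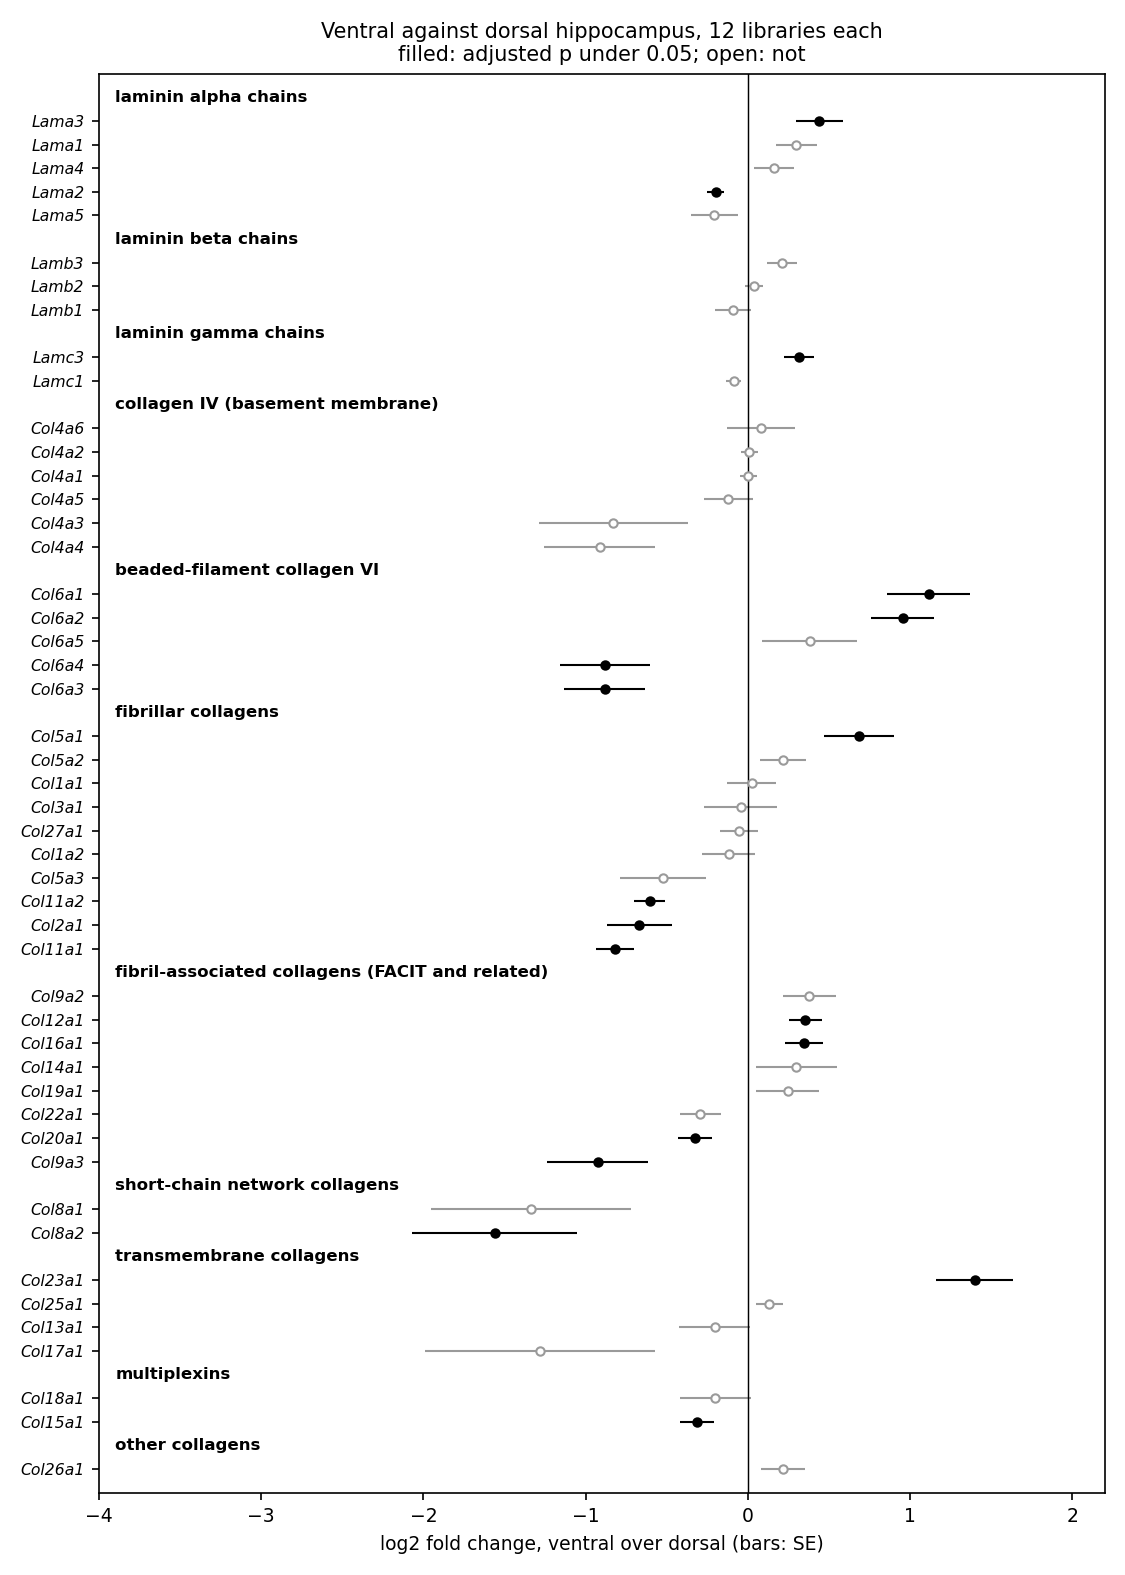
Log2 fold change of 48 members, ventral over dorsal, with its SE, grouped by class; filled points passed the adjusted threshold of 0.05. Type IV chains have no filled point, and type VI chains have filled points on both sides of 0.

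The abundant basement membrane chains differed little between the regions. None of the 6 type IV chains and none of the 3 laminin beta chains passed without the animal as a block. With that block, Col4a4 was lower in the ventral region (-0.81 ± 0.24, adjusted p = 0.02), against -0.91 ± 0.34 (adjusted p = 0.051) without it. The differences of the abundant chains were estimated tightly. The ventral over dorsal log2 fold change was 0.00 ± 0.05 (SE, 12 libraries per region) for Col4a1, 0.01 ± 0.05 for Col4a2, 0.04 ± 0.06 for Lamb2 and -0.09 ± 0.05 for Lamc1. The summed level of the type IV chains was 7.40 ± 0.59 RPKM in ventral and 7.48 ± 0.73 RPKM in dorsal libraries (SD, n = 12 each). That of the beta chains was 7.08 ± 0.81 RPKM in ventral and 7.12 ± 0.66 RPKM in dorsal libraries.

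Among the laminin alpha chains, Lama2, the chain of brain vessel, astrocyte and muscle basement membranes, had 9.22, 10.6 and 11.9 CPM in ventral libraries, against 10.4, 12.3 and 13.4 CPM in dorsal libraries. It was lower in the ventral library in all but 1 of 12 animals, by a small step (-0.20 ± 0.05, edgeR adjusted p = 0.0054). Lama3, an alpha chain of epithelial basement membranes, had 2.05, 3.61 and 4.28 CPM in ventral libraries, against 1.53, 2.60 and 3.29 CPM in dorsal libraries (0.44 ± 0.15, adjusted p = 0.0254). Both genes overlapped between regions. The gamma chain Lamc3 was higher in the ventral region (0.32 ± 0.09, adjusted p = 0.014). Lama1 (0.30 ± 0.13, adjusted p = 0.0813), Lama4 (0.16 ± 0.12) and Lama5 (-0.21 ± 0.14) did not pass.

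Type VI chains were called in both directions. Col6a1 and Col6a2, which assemble with another chain into the beaded filament and lie on the same strand of chromosome 10 with 85161 bp between them, were higher in the ventral library in 12 of 12 animals. Col6a1 had 5.18, 6.67 and 11.1 CPM in ventral libraries, against 1.45, 2.30 and 6.22 CPM in dorsal libraries. Its log2 fold change was 1.11 ± 0.26 (edgeR adjusted p = 0.00302). Col6a2 had 3.62, 5.78 and 7.71 CPM in ventral libraries, against 1.60, 2.46 and 4.91 CPM in dorsal libraries (0.95 ± 0.19, adjusted p = 0.000907). Most dorsal libraries lay below every ventral library in both genes. The dorsal libraries that did not were nicotine-sired male B, nicotine-sired female A and the 2 high in Dcn (saline-sired male C and saline-sired female C) for Col6a2, and saline-sired male A and nicotine-sired female A for Col6a1. Without the 2 dorsal libraries high in Dcn, the differences were 1.29 for Col6a1 and 1.12 for Col6a2. The third main chain Col6a3 was lower in the ventral region, with 0.98, 1.3 and 2.05 CPM in ventral libraries against 1.003, 2.06 and 9.27 CPM in dorsal libraries (-0.88 ± 0.25, adjusted p = 0.0107). The highest dorsal level, in saline-sired male A, came from a library high in Ttr. Without the 8 libraries high in Ttr, the Col6a3 call ended (-0.23, adjusted p = 0.53), with medians of 1.26 CPM in ventral and 1.48 CPM in dorsal libraries. Col6a4 was lower in 12 of 12 animals, with 0.08, 0.445 and 0.736 CPM in ventral libraries against 0.124, 0.865 and 1.36 CPM in dorsal libraries (-0.88 ± 0.28, adjusted p = 0.0192). Its call ended too without the libraries high in Ttr, at a difference of -0.65, in a refit of only 10 ventral and 6 dorsal libraries.

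The upstream sequences of Col6a1 and Col6a2 are shown because the 2 genes moved together within each region. Their levels followed each other over 12 animals in the ventral (r = 0.738, permutation test, adjusted p = 0.0288; rho = 0.783, adjusted p = 0.029; r = 0.648 without the 2 farthest animals) and in the dorsal region (r = 0.906, adjusted p = 0.0028; rho = 0.706, adjusted p = 0.0616; r = 0.899 without the 2 farthest). The stretches are the parts of RefSeq promoter windows (GRCm38.p6; 250 bases before to 50 after a gene's RefSeq start) that no annotated exon covers, and 34 of the 49 members had a window. The strand printed is that of the gene, and capitals mark GC boxes (GGGCGG or CCGCCC) and CCAAT boxes (CCAAT or ATTGG). The Col6a1 stretch is chr10:76726169-76726294, minus strand, and the Col6a2 stretch is chr10:76623631-76623880, minus strand.
Col6a1: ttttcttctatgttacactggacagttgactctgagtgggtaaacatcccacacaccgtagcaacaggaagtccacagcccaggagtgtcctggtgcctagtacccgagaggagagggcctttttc
Col6a2: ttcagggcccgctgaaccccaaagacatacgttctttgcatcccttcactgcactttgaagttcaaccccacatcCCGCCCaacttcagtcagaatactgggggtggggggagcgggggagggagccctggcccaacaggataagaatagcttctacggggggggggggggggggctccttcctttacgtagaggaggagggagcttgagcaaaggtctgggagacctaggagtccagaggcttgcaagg
The Col6a2 stretch held 1 GC box, a motif found in 32.7% of 32851 promoter windows of that length, and no CCAAT box. The Col6a1 stretch, of 126 bases, held neither, where 13.5% of equally placed stretches held a GC box and 16.9% a CCAAT box. Neither stretch held a TATA box (TATAAA or TTTATA).

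Among the fibrillar collagens, the type XI chains were lower in the ventral hippocampus with the smallest p-values of all members. Type XI collagen forms the core of thin cartilage fibrils. Col11a1 had 0.864, 0.971 and 1.51 CPM in ventral libraries, against 1.26, 1.91 and 2.52 CPM in dorsal libraries (-0.82 ± 0.12, edgeR adjusted p = 1.59e-05). The overlap came from nicotine-sired female C, the 1 animal in which the ventral library was higher. Col11a2 had 6.52, 8.85 and 14.2 CPM in ventral libraries, against 9.97, 13.7 and 18.2 CPM in dorsal libraries (-0.60 ± 0.09, adjusted p = 5.78e-05). It was lower in the ventral library in 12 of 12 animals. Per length, Col11a1 ran at only 0.038 to 0.099 of Col11a2. Over the 12 animals the 2 genes did not follow each other closely within the ventral (r = 0.409, permutation test, adjusted p = 0.266; rho = 0.392, adjusted p = 0.349; r = 0.574 without the 2 farthest) or the dorsal region (r = 0.217, adjusted p = 0.589; rho = 0.371, adjusted p = 0.365; r = 0.154 without the 2 farthest). Both calls held in all 12 refits without 1 animal, with the choroid plexus markers as a covariate and without the 8 libraries high in Ttr.

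The upstream stretches of the type XI genes are shown for comparison, since the chains moved in the same direction between regions. The Col11a1 stretch is chr3:114030290-114030539, plus strand. The Col11a2 stretch is chr17:34038888-34039137, plus strand, with the same capitals as above.
Col11a1: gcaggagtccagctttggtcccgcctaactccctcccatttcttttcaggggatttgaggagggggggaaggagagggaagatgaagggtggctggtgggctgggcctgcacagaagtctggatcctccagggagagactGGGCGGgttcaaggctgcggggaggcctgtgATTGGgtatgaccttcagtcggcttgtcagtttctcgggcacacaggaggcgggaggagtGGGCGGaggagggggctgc
Col11a2: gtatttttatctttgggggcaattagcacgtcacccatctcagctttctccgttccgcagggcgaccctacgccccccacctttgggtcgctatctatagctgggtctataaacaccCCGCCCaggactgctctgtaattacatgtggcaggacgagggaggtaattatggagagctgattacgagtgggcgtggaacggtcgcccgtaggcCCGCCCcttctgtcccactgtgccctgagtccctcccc
Each stretch held 2 GC boxes. Col11a1 also held 1 CCAAT box, a motif found in 33.8% of the promoter windows, and Col11a2 held 1 TATA box, found in 12.4%.

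Other fibrillar chains moved in both directions. Col5a1, which controls the width of type I fibrils, had 1.57, 2.70 and 4.28 CPM in ventral libraries, against 0.958, 1.52 and 3.26 CPM in dorsal libraries (0.68 ± 0.22, edgeR adjusted p = 0.0219). Col2a1, the main cartilage chain, was lower (-0.67 ± 0.20, adjusted p = 0.0141). The type I chains did not pass, at 0.03 ± 0.15 for Col1a1 and -0.12 ± 0.16 for Col1a2, nor did Col3a1 at -0.04 ± 0.22. Lum, a fibroblast marker, had medians of 2.79 CPM in ventral and 2.24 CPM in dorsal libraries.

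The largest positive difference among the members was that of Col23a1, a transmembrane collagen that can be shed from the cell surface. It had 6.05, 11.2 and 14.6 CPM in ventral libraries, against 1.84, 3.93 and 9.10 CPM in dorsal libraries (1.40 ± 0.24, edgeR adjusted p = 0.000232). Its ventral level was higher in all but 1 of 12 animals. The highest dorsal levels were those of saline-sired male C (9.10 CPM) and saline-sired female C (7.80 CPM), the libraries high in Dcn, and of saline-sired male A (7.08 CPM). Without the 2 libraries high in Dcn, the difference was 1.72. The neuronal Col25a1 did not pass, at 0.13 ± 0.08.

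**Figure D3:**
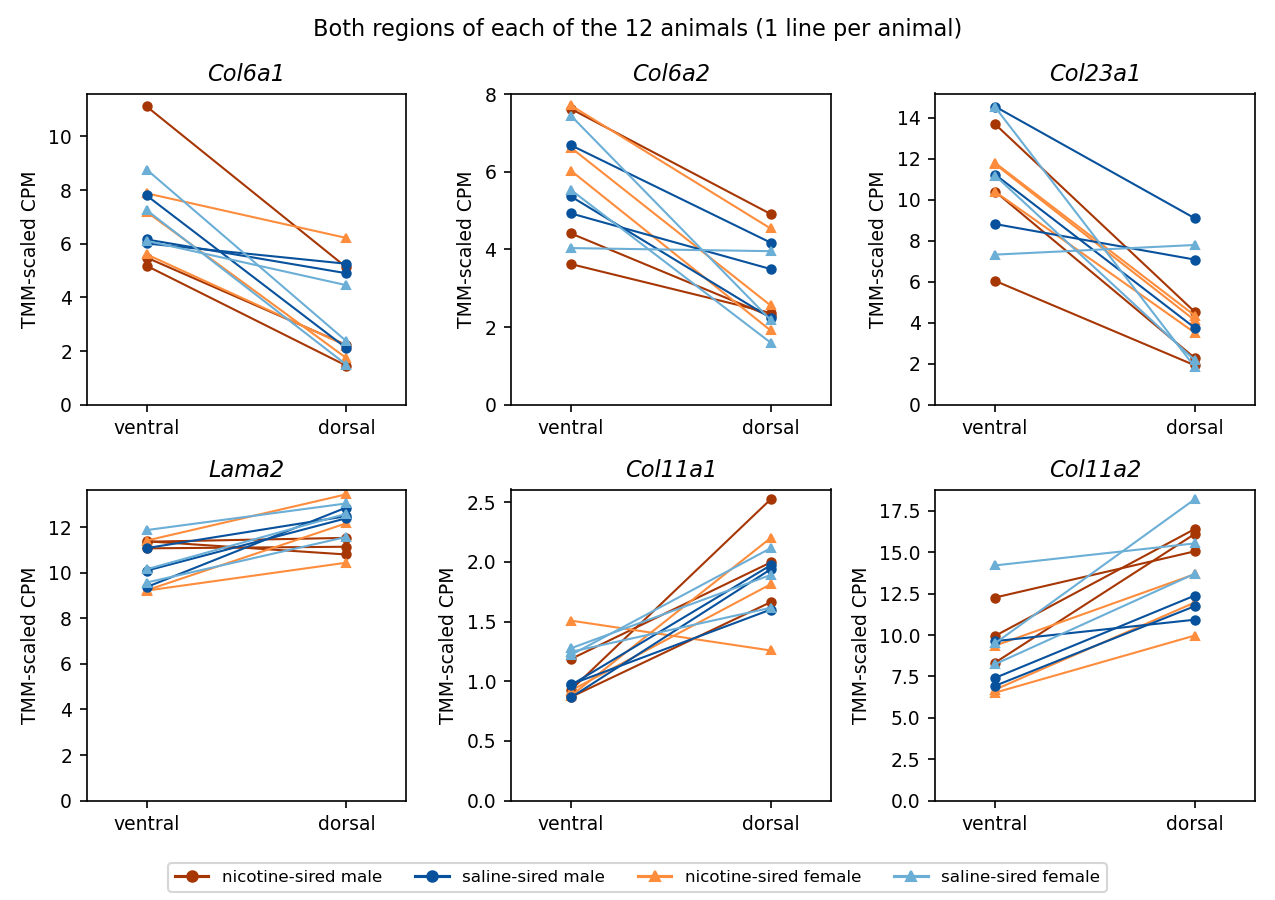
TMM-scaled CPM of 6 members in the ventral and the dorsal library of each animal, 1 line per animal, coloured by sire treatment and shaped by sex. Every line falls towards the dorsal side for Col6a1 and Col6a2 and rises towards it for Col11a2.

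Fibril-associated collagens sit on the surface of fibrils and do not form fibrils alone. Of the 8, Col12a1 (0.35 ± 0.10, edgeR adjusted p = 0.0121) and Col16a1 (0.35 ± 0.12, adjusted p = 0.0327) were higher in the ventral region. Col20a1 (-0.32 ± 0.10, adjusted p = 0.0215) and Col9a3 were lower, as was the vessel-wall multiplexin Col15a1 (-0.31 ± 0.10, adjusted p = 0.0265). With the animal as a block, Col9a2 (0.37 ± 0.13, adjusted p = 0.0402; 0.0883 without it) passed as well. The transmembrane Col17a1 also passed with that block (-1.13 ± 0.41, adjusted p = 0.0418; 0.192 without it). Col9a3 had 5.60, 6.80 and 22.9 CPM in ventral libraries, against 6.08, 12.2 and 36.6 CPM in dorsal libraries (-0.93 ± 0.31, adjusted p = 0.0325). The short-chain collagen Col8a2, which forms hexagonal networks in the basement membrane of the cornea, had 0.918, 1.51 and 10.6 CPM in ventral libraries, against 0.905, 4.48 and 23.6 CPM in dorsal libraries (-1.56 ± 0.51, adjusted p = 0.0285). For Col9a3 and Col8a2, most of the dorsal spread lay in a few libraries.

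Those few libraries were the ones high in Ttr. In the 8 libraries with Ttr above 1000 CPM, Col8a1 had 3.29, 9.13 and 20.9 CPM (lowest, median and highest), against 0.286, 0.988 and 1.76 CPM in the other 16. Col8a2 had 5.38, 9.41 and 23.6 CPM in the 8, against 0.905, 1.31 and 3.58 CPM in the other 16. Col9a3 had 13.6, 19.3 and 36.6 CPM in the 8, against 5.60, 7.06 and 10.7 CPM in the other 16. None of these ranges overlapped, and neither did those of Col4a3, Col4a4 and Col17a1. How many of all genes stood apart in this way was not counted, so nothing particular to the members is read from it. The libraries were split by Ttr after the data were seen, so these are descriptions with no test. In step with these members, 15 of the 18 choroid plexus markers (83.3%, against 29.2% of all genes called) passed as lower in the ventral region. Summed over the list, the markers ranged in CPM over 261 to 311 (nicotine-sired males), 285 to 2898 (nicotine-sired females), 169 to 240 (saline-sired males) and 177 to 331 (saline-sired females) in the ventral region. In the dorsal region they ranged over 218 to 2954, 346 to 7499, 372 to 7627 and 210 to 1542 CPM in the same order of groups.

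Without the 8 libraries, Col8a2 had 1.31 CPM as its ventral and 1.28 CPM as its dorsal median, and its difference reversed (0.04, edgeR adjusted p = 0.917). Col8a1 was then higher in the ventral region (0.82, adjusted p = 0.00676), with medians of 1.15 CPM in ventral and 0.714 CPM in dorsal libraries. Col9a3 kept a smaller difference (-0.30, adjusted p = 0.0227). Among the members called before, Col23a1, Col6a1, Col6a2, Col5a1, Lamc3, Col11a1, Col11a2 and Col9a3 kept their calls in this refit. It holds 10 ventral and 6 dorsal libraries, with a lone library in some groups. The end of a call there may thus also reflect the smaller number of libraries. Col6a5 had a difference of 2.30 in this refit, with medians of 0.409 CPM in ventral and 0.251 CPM in dorsal libraries. Its lowest dorsal level, 0 CPM, lay in nicotine-sired male C, the lone dorsal library left of its group. In the fit of all 24 libraries with the animal as a block, Col6a5 had 0.4 ± 0.28 (edgeR adjusted p = 0.292). With the choroid plexus markers as a covariate, 12 of the 18 calls remained. The shares of all genes called in these refits are not given here.

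**Figure D4:**
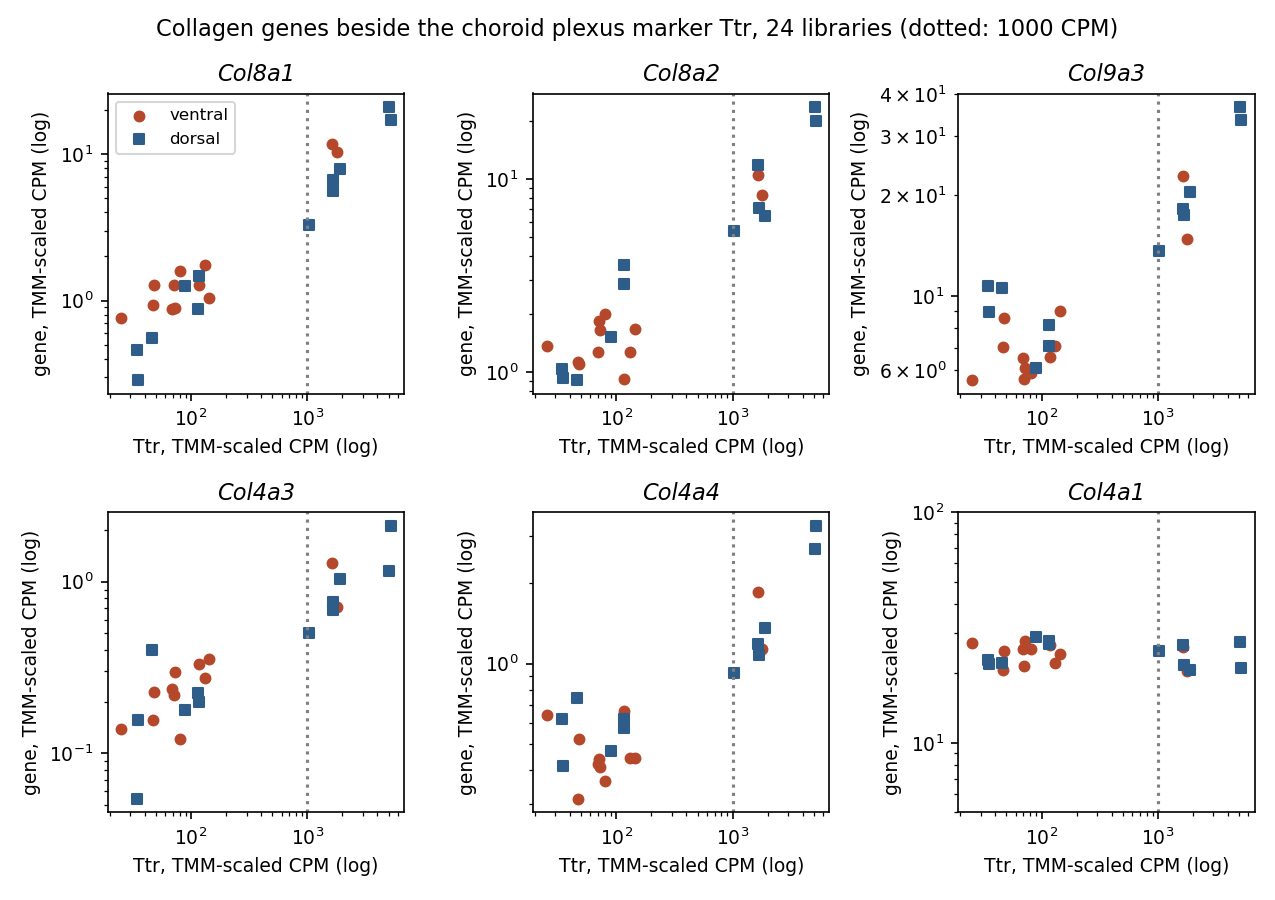
CPM of 6 collagen genes against CPM of the choroid plexus marker Ttr in 24 libraries (both axes log). Right of the dotted line at 1000 CPM, Col8a1, Col8a2, Col9a3, Col4a3 and Col4a4 lie above all points on its left, while Col4a1 does not.

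Col8a1 and Col8a2 encode the chains of type VIII collagen and followed Ttr together. Per length, Col8a1 ran at 0.139 to 0.796 of Col8a2. The Col8a1 stretch is chr16:57754738-57754987, minus strand, and the Col8a2 stretch is chr4:126286544-126286792, plus strand. Col4a3 and Col4a4, chains of the kidney and lung type IV network, start 71 bases apart on opposite strands of chromosome 1. The whole stretch between them, chr1:82586850-82586920, minus strand (that of Col4a4), is the last sequence shown.
Col8a1: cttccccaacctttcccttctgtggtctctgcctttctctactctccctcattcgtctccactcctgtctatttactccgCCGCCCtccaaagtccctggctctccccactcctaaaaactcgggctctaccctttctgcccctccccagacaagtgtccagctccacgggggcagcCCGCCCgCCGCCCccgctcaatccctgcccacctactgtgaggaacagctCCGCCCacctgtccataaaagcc
Col8a2: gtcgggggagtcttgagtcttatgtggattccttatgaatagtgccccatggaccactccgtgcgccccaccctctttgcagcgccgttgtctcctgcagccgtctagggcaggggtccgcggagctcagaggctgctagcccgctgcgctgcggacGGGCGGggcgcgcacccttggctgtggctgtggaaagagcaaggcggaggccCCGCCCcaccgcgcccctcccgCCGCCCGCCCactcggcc
Col4a4 to Col4a3: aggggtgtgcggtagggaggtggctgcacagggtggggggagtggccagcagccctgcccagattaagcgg
The Col8a1 and the Col8a2 stretch held 4 GC boxes each and no CCAAT box. In the Col8a2 stretch, 2 of the boxes overlap. The stretch between Col4a4 and Col4a3 held no GC box, where 20.7% of equally placed stretches did, and no CCAAT box.

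Other cell markers were also compared between the regions, where 29.2% of all genes were called. All 8 oligodendrocyte markers and 7 of 10 excitatory neuron markers were lower in the ventral region, and of 8 interneuron markers 4 were higher and 1 lower. Of 9 astrocyte markers 3 were higher, and of 9 microglia markers 3 were lower (33.3% each). Of 14 meningeal and perivascular fibroblast markers, 2 were higher and 2 lower (28.6%). These 3 shares lie near that of all genes. Of 16 endothelial markers 3 were higher (18.8%), and of 13 pericyte and smooth muscle markers 1 was higher (7.69%), shares below that of all genes. Of 8 thalamus and habenula markers tested, 2 were higher and 2 lower (50%), and of 5 blood cell markers 0 were called. The part of the marker lists in the differences of the members was not tested. Counts assigned to antisense genes were 2.33% to 2.94% of those of their host genes in ventral and 2.099% to 2.61% in dorsal libraries. With that ratio as a covariate, Col11a1 (-0.97, edgeR adjusted p = 0.000826) and Col11a2 (-0.50, adjusted p = 0.0212) alone of the 18 members passed. Col23a1 then had 1.09 (adjusted p = 0.0531) and Col6a2 had 0.50 (adjusted p = 0.201). The share of all genes called with this covariate is not given here.

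Genes that make, bind and degrade these chains were read from lists by function, written with earlier results of these data known. The shares called between the regions were 31.0% for collagen processing, 38.9% for other matrix genes, 44.4% for receptors and 26.3% for turnover, against 29.2% of all genes, so the counts say little of the lists as such. Of 29 genes of collagen processing, 3 were higher and 6 lower in the ventral hippocampus. The procollagen N-proteinase genes Adamts14 (1.65 ± 0.23) and Adamts2 (1.06 ± 0.15) were higher, and the lysyl hydroxylase gene Plod1 (-0.36 ± 0.05) and the proteinase enhancer gene Pcolce2 (-1.14 ± 0.20) were lower. Of 18 other matrix genes 5 were higher and 2 lower, among them the collagen-binding Sparc (0.52 ± 0.06) and the integrin ligand Npnt (-0.82 ± 0.08). Of 18 receptor genes 3 were higher and 5 lower. The laminin-binding integrin chains Itga7 (-1.09 ± 0.11) and Itgb4 (-0.73 ± 0.09) and the collagen-binding Itga11 (-0.64 ± 0.09) were lower, and Adgrg1 (0.46 ± 0.06), a receptor for type III collagen, was higher. Of 19 turnover genes 2 were higher and 3 lower, with the proteinase inhibitor gene Timp2 at 1.37 ± 0.14. The genes named here had edgeR adjusted p-values of 0.0003 (Pcolce2) or below.

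Sire treatment was compared within each region, in all offspring, in males and in females. No member passed in any of these 6 comparisons. In dorsal libraries, 0 of 49 members were called where the background was 0.0784% (all offspring), 1.78% (males) and 0.0314% (females). In the ventral hippocampus, 0 of 49 were called where the background was 1.75% (all offspring), 3.21% (males) and 0.0312% (females). At an unadjusted p under 0.05 in edgeR's quasi-likelihood test, there were 1, 6 and 2 members in the dorsal and 5, 7 and 9 in the ventral region, in the same order. These are 2.04%, 12.2% and 4.08% of the members in the dorsal region, where 10.8%, 17.6% and 13.3% of all genes lay under that p. In the ventral region they are 10.2%, 14.3% and 18.4% of the members, where the shares of all genes were 15.7%, 15.8% and 13.9%. The members' share was thus below that of all genes in each comparison but that of ventral females. DESeq2 called 0, 2 and 0 members in the dorsal and 1, 0 and 2 in the ventral region. The share of all genes that DESeq2 called is not given here, so these counts say nothing particular of the members. Whether the treatment difference itself differed between the regions was also tested, and 0 of 49 members were called where the background was 0%. At an unadjusted p under 0.05 there were 0 members, against 4.76% of all genes, and DESeq2 called 0.

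The smallest p-value in males belonged to Col4a1. It had 20.8, 21.7 and 21.96 CPM in the dorsal hippocampus of nicotine-sired males, against 27.4, 26.8 and 27.7 CPM in saline-sired males. The groups did not overlap, but the difference did not pass (-0.35 ± 0.10, edgeR adjusted p = 0.0986; DESeq2 adjusted p = 0.0392). In dorsal females, Col4a1 had 28.6, 21.1 and 26.4 CPM in nicotine-sired and 22.2, 22.9 and 24.98 CPM in saline-sired animals, which overlapped. In ventral males, its partner Col4a2 had 21.0, 21.9 and 23.9 CPM in nicotine-sired and 24.9, 26.6 and 27.8 CPM in saline-sired animals (-0.25 ± 0.09, edgeR adjusted p = 0.165). The type I chain Col1a1 had a log2 fold change of 0.68 ± 0.29 in dorsal males (adjusted p = 0.258) and 0.69 ± 0.27 in ventral males (adjusted p = 0.22).

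In ventral females the largest values were those of the type VIII chains, and they lay in 2 libraries. Col8a1 had 1.60, 10.4 and 11.7 CPM in nicotine-sired females, against 1.28, 0.938 and 1.04 CPM in saline-sired females (2.84 ± 0.59, edgeR adjusted p = 0.126). Col8a2 had 1.99, 8.27 and 10.6 CPM in nicotine-sired females, against 1.09, 1.13 and 1.66 CPM in saline-sired females (2.42 ± 0.51, adjusted p = 0.126). DESeq2 called both. Nicotine-sired females B and C, which carried the high values, had 1783 and 1640 CPM of Ttr.

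Whether the treatment difference differed between males and females was tested as an interaction. In the dorsal hippocampus 1 of 49 members passed where the background was 2.24%, and in the ventral hippocampus 1 of 49 passed where it was 1.07%. The 1 call is 2.04% of the members in each region, and nothing particular to them is read from a single gene. The dorsal gene was the type XI chain Col11a2. It had 16.1, 16.4 and 15.1 CPM in nicotine-sired males, against 12.4, 11.8 and 10.9 CPM in saline-sired males. In females it had 9.97, 11.97 and 13.68 CPM in nicotine-sired and 13.71, 18.2 and 15.5 CPM in saline-sired animals. The males of nicotine sires lay above the males of saline sires, and the females of nicotine sires lay below those of saline sires, with almost no gap between the closest pair. The difference between the sexes was 0.84 ± 0.18 on the log2 scale (edgeR adjusted p = 0.0337). The call ended in 8 of 12 refits without 1 library, with adjusted p-values of 0.052 to 0.0965, and held without nicotine-sired female A, B or C or saline-sired female A. It also ended with the meningeal markers as a covariate and without the 2 dorsal libraries high in Dcn (saline-sired male C and saline-sired female C). In the ventral hippocampus the same contrast of Col11a2 was 0.85 ± 0.31 (adjusted p = 0.227).

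The ventral gene was Lama1, the laminin alpha chain of the early embryo and of the brain surface. It had 1.90, 2.46 and 2.48 CPM in nicotine-sired males, against 1.29, 1.25 and 1.82 CPM in saline-sired males. In females it had 1.36, 1.47 and 1.34 CPM in nicotine-sired and 3.14, 2.50 and 1.81 CPM in saline-sired animals. Neither pair of groups overlapped, and the directions were opposite. The difference between the sexes was 1.499 ± 0.32 (edgeR adjusted p = 0.0398). The call ended in 9 of 12 refits without 1 library (adjusted p = 0.0658 to 0.126) and held without nicotine-sired male A, saline-sired male C or saline-sired female C. It also ended with the choroid plexus or the antisense covariate and without the 2 ventral libraries high in Ttr. In the dorsal hippocampus, Lama1 had 1.34, 1.49 and 2.02 CPM in nicotine-sired males and 1.29, 1.54 and 2 CPM in saline-sired males, which overlapped. Dorsal females had 1.12, 0.818 and 1.57 CPM of Lama1 in nicotine-sired and 1.44, 1.49 and 2.005 CPM in saline-sired animals (-0.48 ± 0.28, adjusted p = 0.464), which also overlapped. The dorsal difference between the sexes was 0.49 ± 0.39 (adjusted p = 0.513).

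**Figure D5:**
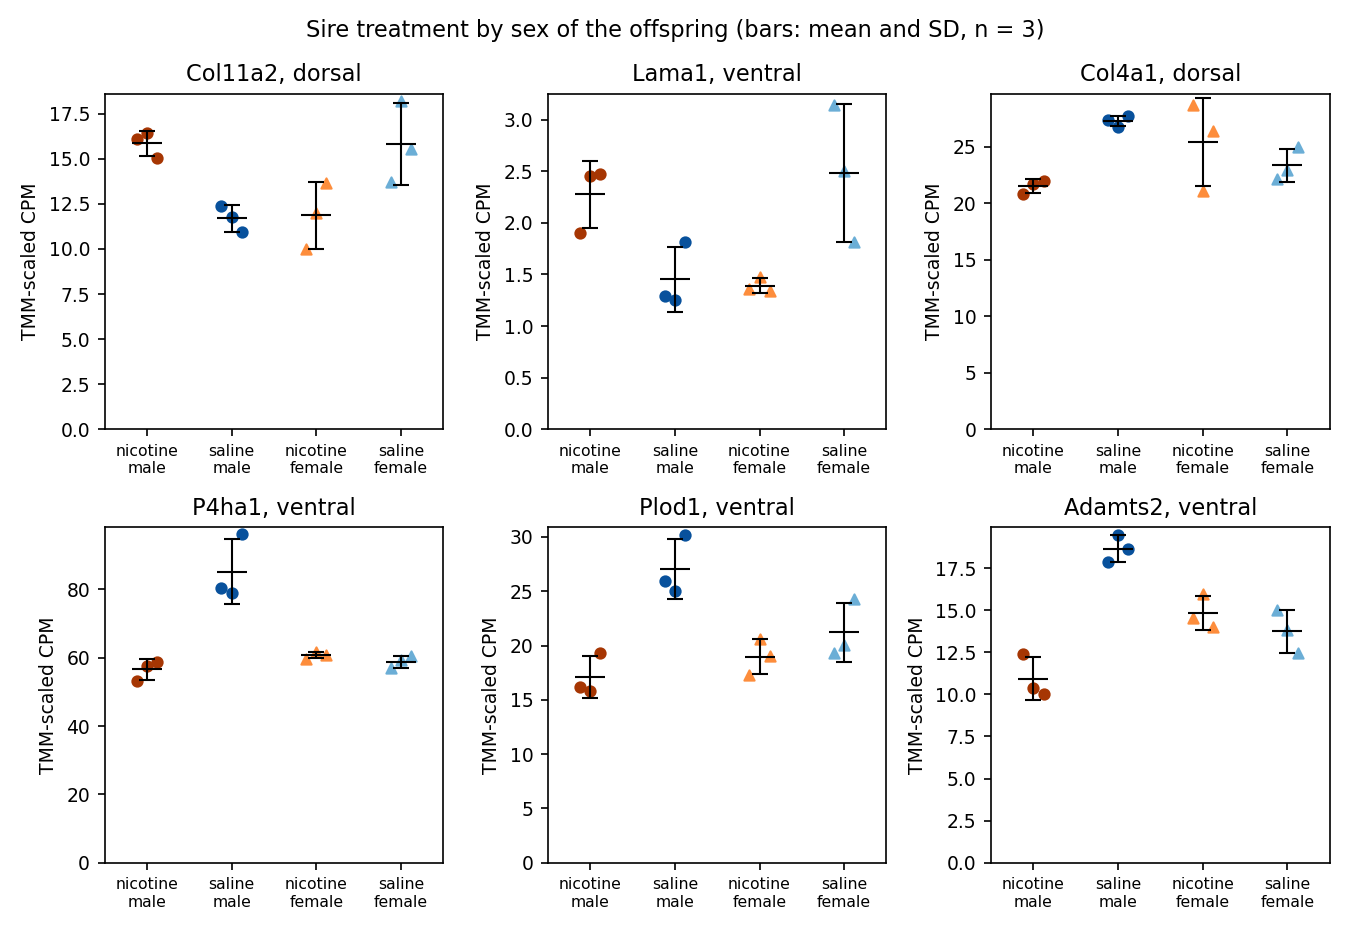
TMM-scaled CPM of 2 members called for a difference between the sexes (Col11a2 dorsal, Lama1 ventral), of Col4a1 and of 3 collagen processing genes, by sire treatment and sex (points: libraries; bars: mean and SD, n = 3). P4ha1, Plod1 and Adamts2 are lower in nicotine-sired than in saline-sired males with no overlap, while the female groups overlap.

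Sire treatment gave calls among the genes that modify the chains, in males. Of 29 collagen processing genes, 3 were lower and none higher in the dorsal hippocampus of nicotine-sired males, and 5 were lower and none higher in the ventral hippocampus. These are 10.3% and 17.2% of the list, where 1.78% of all genes were called in dorsal and 3.21% in ventral males. The list was written with earlier results of these data known, so its larger share is a description and not a test. In females edgeR called 0 of the 29 in either region, where the share of all genes called was only 0.0314% (dorsal) and 0.0312% (ventral). At an unadjusted p under 0.05 there were 4 dorsal and 7 ventral genes in females, 13.8% and 24.1% of the list, against 13.3% and 13.9% of all genes. The prolyl hydroxylase subunit gene P4ha1 had 53.2, 57.7 and 58.8 CPM in ventral libraries of nicotine-sired males, against 80.3, 79.0 and 96.1 CPM in saline-sired males (-0.59 ± 0.08, edgeR adjusted p = 0.000816). The related subunit gene P4ha2 had 11.0, 10.7 and 11.0 CPM in nicotine-sired and 14.5, 14.9 and 16.6 CPM in saline-sired males (-0.49 ± 0.08, adjusted p = 0.00347). The groups did not overlap for either subunit. Plod1, which hydroxylates lysines of collagen, had 16.2, 15.8 and 19.3 CPM in nicotine-sired and 26.0, 25.04 and 30.2 CPM in saline-sired males (-0.66 ± 0.11, adjusted p = 0.00448). Adamts2, which trims the ends of procollagen, had 12.4, 10.3 and 10.03 CPM in nicotine-sired and 17.9, 19.4 and 18.6 CPM in saline-sired males (-0.77 ± 0.10, adjusted p = 0.000795). P4hb, the other subunit of the prolyl hydroxylase, was lower by a smaller step (-0.25 ± 0.06, adjusted p = 0.0426), and that call ended in 10 of 12 refits. All 5 ventral calls ended with the antisense ratio as a covariate, which was 2.65% to 2.94% in ventral libraries of nicotine-sired males and 2.33% to 2.59% in those of saline-sired males.

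In the dorsal hippocampus of males, P4ha1 (-0.48 ± 0.08, edgeR adjusted p = 0.0128), P4ha2 (-0.64 ± 0.13, adjusted p = 0.0344) and Plod1 (-0.47 ± 0.10, adjusted p = 0.0314) were lower in nicotine-sired animals. These calls ended in 4, 7 and 7 of 12 refits without 1 library. The proteinase inhibitor gene Timp1 was lower as well (-2.04 ± 0.39, adjusted p = 0.0249), at 0.173, 0.179 and 0.182 CPM in nicotine-sired against 0.727, 0.844 and 0.65 CPM in saline-sired males. The Timp1 call ended in 6 of 12 refits. The receptor gene Itga11 was lower in ventral males (-0.83 ± 0.19, adjusted p = 0.0267), and that call ended in 4 of 12 refits. Averaged over the sexes, Plod1 (-0.41 ± 0.08, adjusted p = 0.0155), P4ha1 (-0.27 ± 0.05, adjusted p = 0.0187) and Adamts2 (-0.33 ± 0.07, adjusted p = 0.0262) were lower in the ventral region. These averaged calls ended in 0, 3 and 6 of 12 refits. For P4ha1 and Adamts2 the ventral difference itself differed between the sexes, by -0.634 and -0.879 (males minus females). The female groups of both genes overlapped, so these 2 averages do not show a drop shared by females. In the dorsal region edgeR called 0 of the 29 processing genes over both sexes, with 5 at an unadjusted p under 0.05.

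Vessel markers moved beside these genes in nicotine-sired males. Of all genes, 1.78% were called in dorsal males, 3.21% in ventral males and 1.75% in the ventral region over both sexes. Of 13 pericyte and smooth muscle markers, 3 were higher in the dorsal region (Myh11, Acta2 and Vtn) and 2 in the ventral region (Myh11 and Acta2), and none was lower. Myh11 differed by 1.08 ± 0.19 (edgeR adjusted p = 0.017) in the dorsal and by 0.91 ± 0.18 (adjusted p = 0.0102) in the ventral region. The summed level of the 13 ranged over 191.8 to 222.8 CPM in nicotine-sired against 160.0 to 171.2 CPM in saline-sired males in the dorsal region. In the ventral region it ranged over 204.3 to 251.3 CPM in nicotine-sired against 180.7 to 187.8 CPM in saline-sired males. Of 16 endothelial markers, 2 were higher and 2 lower in the dorsal region and 5 higher and 4 lower in the ventral region. Other marker lists moved as well. Of 5 blood cell markers, 2 were higher in ventral males and 4 in the ventral region over both sexes. Their summed level was 390.9 to 464.0 CPM in ventral libraries of nicotine-sired males, against 282.5 to 346.9 CPM in those of saline-sired males. Of 9 astrocyte markers, 1 was lower in dorsal males, and 2 were higher and 1 lower in ventral males. Of 9 microglia markers, 1 was higher in dorsal and 2 in ventral males, and 1 of 8 oligodendrocyte markers was higher in ventral males. The part of these lists in the values of the collagen and laminin genes was not tested.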

How the data were processed

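Both hippocampal regions of 12 mice were profiled by RNA-seq. Per the labels' protocols, frozen tissue gave column-purified RNA, and stranded mRNA libraries were sequenced on a HiSeq2500 as 150 bp single-end reads over 3 lanes. Cufflinks, Cuffdiff 2.2.1.3 and TopHat2 2.1.0 are named without roles, with the build mm10 (GRCm38), per the submitters' processing notes. The authors deposited raw counts per gene for 24 libraries. No source used here gives the counter, its strand setting or its annotation. Coordinates, exon lengths and symbols come from GENCODE M21 (GRCm38). A total of 51719 of 51912 identifiers matched.

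edgeR 4.0.16 was run on these deposited counts (R 4.3.3, limma 3.58.1): TMM scaling, filterByExpr by group, robust quasi-likelihood F test, Benjamini-Hochberg adjustment over all genes tested, threshold 0.05. Each region was fitted apart (12 libraries, 4 groups; 19130 dorsal and 19224 ventral genes). Regions were compared in 1 fit of 24 libraries (19849 genes). All 49 members passed the filter in each fit, and the values of 1 are not reported here. CPM used TMM-scaled library sizes, and RPKM divided CPM by merged exon length. SE is the log2 fold change over the root of F. Correlations used log2(CPM + 0.1) and 100000 permutations. The procedure was tested on simulated counts.

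Values in every library were given for members called by sire treatment, the largest region differences and the highest members. Pathway genes were named from those called, up to 6 per list and comparison. The members and lists were chosen with earlier results of these data known. Alternatives were a non-robust fit, RLE size factors, all genes without a low-count filter, DESeq2 1.42.0, blocks, marker and antisense covariates, the spread of all 24 libraries and leaving out each replicate. The fits without libraries high in Ttr (above 1000 CPM) or Dcn (above 30 CPM) were chosen after seeing the data. Title prefixes tie each ventral library to the dorsal library of the same animal. Over all genes, deviations of these pairs from their groups had a median correlation of 0.155 (-0.08 to 0.528), 9 of 12 over 0.1.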

Additional observations from a re-analysis of the deposited data

Results flagged for a closer look

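Whether the treatment difference differed between the sexes (log2, males minus females) was read from edgeR's interaction test. Among the members and the lists by function, 9 gene and region pairs passed. The members were Col11a2 in the dorsal (0.84 ± 0.18, adjusted p = 0.0337) and Lama1 in the ventral hippocampus (1.5 ± 0.32, adjusted p = 0.0398), described above. Of all genes, 428 passed for the dorsal region (2.24%) and 205 for the ventral region (1.07%), so the sex difference was not confined to these 9 pairs. Cell markers passed too, among them 3 of 16 endothelial markers for each region.

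The others encode collagen-modifying enzymes or a proteinase inhibitor. In the dorsal hippocampus they were P4ha1 (-0.50 ± 0.12, adjusted p = 0.046), Plod1 (-0.58 ± 0.14, adjusted p = 0.0463) and Timp1 (-2.63 ± 0.59, adjusted p = 0.0414). Each of these 3 calls ended in 11 of 12 refits without 1 library.

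In the ventral hippocampus they were Adamts2 (-0.88 ± 0.14, adjusted p = 0.00829), P4ha1 (-0.63 ± 0.11, adjusted p = 0.0124), P4ha2 (-0.55 ± 0.11, adjusted p = 0.0374) and Timp1 (-3.89 ± 0.84, adjusted p = 0.0415). The calls of Adamts2 and P4ha1 held in all 12 refits without 1 library, and those of P4ha2 and Timp1 ended in 10. Ventral P4ha1 had 59.8, 61.6 and 60.8 CPM in nicotine-sired and 57.0, 59.3 and 60.4 CPM in saline-sired females, which overlapped. Timp1 lay under 1 CPM in every library.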

How the results depend on the processing

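Against 18 members called between regions, RLE factors gave 18 calls, no low-count filter 14, the non-robust fit and DESeq2 20 each, the meningeal covariate 19 and the animal block 22, which held all 18. With the antisense covariate 2 passed. Without the 8 libraries high in Ttr, which leaves 10 ventral and 6 dorsal libraries, fewer members passed and Col8a2 reversed to 0.0421. The shares of all genes called in these refits are not given here, so the counts say little of the members as a set. Leaving out 1 animal gave 13 to 20. Col11a1, Col11a2, Col23a1, Col6a1, Col6a2, Col6a3, Col12a1 and Lama2 were never lost. Col9a3 was lost in 7 refits, and Col8a2, Col16a1, Lama3 and Col15a1 were lost in 5 each. Col5a1 was lost in 4, Col20a1 in 2, and Lamc3, Col2a1 and Col6a4 in 1 each.

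For sire treatment, DESeq2 called 2 members in dorsal males, 1 over both sexes and 2 in females in the ventral region, and 3 for the sex difference in each region. For these and the following refits the shares of all genes called are not given, so the counts say nothing particular of the members. The non-robust fit called 1 over both sexes in the ventral region (Col8a1 had adjusted p = 0.0706 as reported), and the choroid covariate 1 in dorsal males and 0 for the ventral sex difference. The antisense covariate called 0 for the ventral sex difference, and the meningeal covariate called 0 for the dorsal one. Without libraries high in Ttr, 3 members passed over both sexes, 3 in males and 8 in females in the dorsal region, and 11 for its sex difference. That fit holds 6 dorsal libraries, with 1 nicotine-sired male, 1 nicotine-sired female and 2 in each saline-sired group, and a lone library is assumed to vary like the others. The ventral sex difference then gave 0. Without dorsal libraries high in Dcn, the dorsal sex difference gave 0, and with the spread of all 24 libraries 2. Leaving out 1 replicate gave 0 to 2 in dorsal males and for the dorsal sex difference, 0 to 3 over both sexes and for the sex difference in the ventral region, 0 to 1 in ventral males and 0 to 4 in ventral females. The highest ventral counts came without nicotine-sired female A. The cause was not tested.

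The title letters share only a letter across groups. Same-letter deviations had a median r of 0.00, 6 of 36 over 0.1. With the letter as a replicate block, 0 members passed for the dorsal sex difference and 1 for the ventral one, where Col11a2 (adjusted p = 0.0229) passed and Lama1 did not. Members near 0.3 CPM rest on few counts per library.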
